A study of Ovis aries with 30 samples.

Results

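Ribosome biogenesis factors are the proteins that transcribe, modify, cut, fold and export the precursors of the ribosome without being part of the finished particle. A list of 60 such genes was looked up by gene name in the deposited count table, and 58 of the 60 had a row among the 28524 genes of the table (PPAN and NSA2 had none). The 58 genes fall into 12 genes of RNA polymerase I and the nucleolar scaffold, 7 genes of the small nucleolar ribonucleoproteins (snoRNPs), 21 genes of small-subunit assembly and 18 genes of large-subunit assembly. They lie on 22 chromosomes, and their exons cover between 772 and 8675 bases with a median of 2653. All 58 passed the filter on low counts (at least 10 reads in at least 10 libraries of a tissue), which kept 14905 genes in brown adipose tissue (BAT) and 16122 genes in thyroid tissue.

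RNA was sequenced from BAT around the kidneys and from the thyroid of 15 newborn Romney lambs, 1 of each twin pair. Cold lambs (n = 6) spent 2 days at 4 °C, ambient temperature lambs (AT, n = 6) spent 2 days at 20–22 °C, and controls (n = 3) were sampled at the start, about a day after birth. Treated lambs were therefore 2 days older than the controls, so treatment and age cannot be told apart against the controls, and cold against AT is the comparison of lambs of 1 age. The study left the same control lamb (Control 2) out of both tissues, and the values below use Control 1 and Control 3 unless stated otherwise.

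Ribosomes are made in the nucleolus. RNA polymerase I copies the ribosomal DNA into 1 long precursor RNA, snoRNPs guide the methylation and pseudouridylation of that RNA, and large complexes then cut it and load ribosomal proteins to give a small and a large subunit that mature in the nucleoplasm and cytoplasm. The process uses much of the energy of a growing cell, and the transcription factor MYC is known to drive many of its genes.

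BAT libraries held 31556500 to 37025998 counts and thyroid libraries 25062784 to 30124871, and 2 transcripts (LOC114112617 and LOC114115287) took between 43.8% and 76.5% of the counts in BAT against 5.18% to 27.8% in thyroid tissue. Normalized counts are counts divided by a size factor set by the study's reference genes (ACTB, HUWE1 and RPL19). Size factors were set within each tissue, so normalized counts of BAT and of thyroid tissue are on different scales. The tissue labels held: the summed normalized counts of 9 thyroid follicular genes were at most 1559 in any BAT library and at least 1325920 in any thyroid library. Skeletal muscle transcripts were high in the thyroid libraries AT 3 (summed normalized counts 3328390) and Control 1 (289796), and in the other thyroid libraries the sum was at most 3959. Each library is 1 tissue of 1 lamb, and in bulk tissue fewer cells of a type and less RNA per cell cannot be told apart.

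In thyroid tissue, ribosome biogenesis factors were lower in the treated lambs than in the controls at every step of the pathway. A gene was called at |log2FC| of at least 1 and an adjusted p under 0.05 in edgeR's quasi-likelihood test with Benjamini-Hochberg adjustment over all tested genes. By this rule 30 of the 58 genes were downregulated under cold conditions, beside 6.15% of all tested genes, and 20 of 58 were downregulated under AT conditions, beside 5.98%. None was upregulated in either comparison by edgeR's test, beside 1.89% of all tested genes under cold and 1.83% under AT, and none was higher at an unadjusted p under 0.05, beside 5.54% and 5.73%. At the adjusted p alone the counts of lower genes were 47 under cold and 39 under AT, beside 16.9% and 18.8% of all tested genes. The comparisons of cold and of AT use the same controls, so their calls are not independent of each other.

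The median log2FC of the 58 genes in thyroid tissue was −1.02 under cold and −0.79 under AT, and that of all tested genes was −0.28 in both. The gap of the members to all genes hardly depended on the scaling, whereas the counts did. With scaling by edgeR's TMM method the median of all genes moved to 0.02 under cold and 0.05 under AT, the median of the members to −0.72 and −0.47, and the numbers of downregulated members to 12 and 7. Under cold, every treated lamb lay below both controls in 50 of the 58 genes, beside 28.5% of all tested genes, and under AT in 42 of 58, beside 21.7%. Control 3 carried much of the call: without it 3 members were downregulated under cold and 3 under AT.

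In BAT the members were also lower in treated lambs, and fewer were called. The median of the members minus that of all genes was −0.52 in BAT and −0.73 in thyroid tissue under cold, and −0.51 in both tissues under AT, so under AT the members were no nearer to all genes in BAT. The number of downregulated members was 4 of 58 under cold, beside 0.631% of all tested genes, and 8 of 58 under AT, beside 3.19%. At the adjusted p alone 9 members were lower under cold and 17 under AT, beside 0.872% and 6.10% of all tested genes. No member was upregulated in BAT by edgeR's test, beside 0.577% of all tested genes under cold and 2.82% under AT, and none was higher at an unadjusted p under 0.05, beside 6.96% and 10.9%. At an unadjusted p under 0.05, 39 members were lower under cold and 29 under AT, beside 11.2% and 15.1%. The median log2FC was −0.62 under cold and −0.54 under AT, against −0.10 and −0.03 over all tested genes, and 56 and 53 of the 58 genes had a log2FC below 0, beside 58.8% and 52.4% of all tested genes. Every treated lamb lay below both controls in 43 members under cold, beside 15.7% of all tested genes, and in 30 under AT, beside 15.3%.

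The counts in BAT rested on few libraries. Under cold they were 0 without Control 1, 0 without Control 3, 1 without Cold 6, 2 without Cold 2 and 9 without AT 6, which enters through the shared estimate of the spread. Under AT they were 1 without Control 1 and 0 without Control 3. With all 3 controls they were 20 and 16, so the counts were larger with the control lamb that the study left out.

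**Figure D1:**
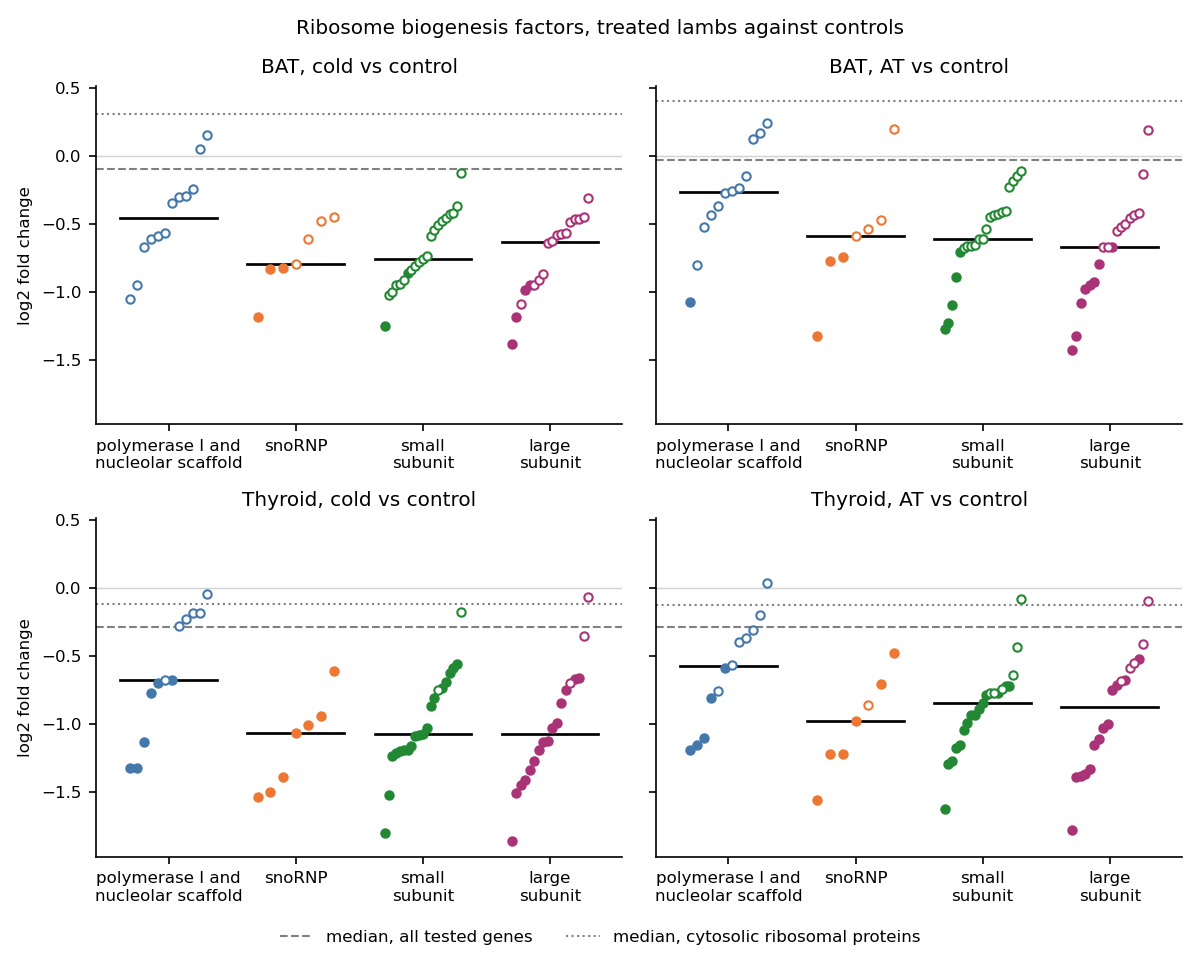
Log2 fold change (vertical axis) of each of the 58 ribosome biogenesis factors against Controls 1 and 3, by class (horizontal axis), in BAT (top) and thyroid tissue (bottom), for cold (left) and AT (right). Each circle is 1 gene, filled where the adjusted p of edgeR's quasi-likelihood test is under 0.05; black bars are class medians, and gray lines give the medians of all tested genes and of 73 cytosolic ribosomal proteins. Nearly all circles lie below 0, and the class of polymerase I and the nucleolar scaffold has the median nearest to 0 in all 4 panels.

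Both subunits and the snoRNPs were similarly low. Under cold in thyroid tissue, the median log2FC was −1.07 for the snoRNP genes, −1.07 for small-subunit assembly, −1.07 for large-subunit assembly and −0.68 for polymerase I and the nucleolar scaffold. Under AT in thyroid tissue the medians in the same order were −0.98, −0.84, −0.87 and −0.57. In BAT they were −0.80, −0.76, −0.63 and −0.46 under cold, and −0.59, −0.61, −0.67 and −0.27 under AT. The order of the classes was not tested.

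Of the 12 genes of polymerase I and the nucleolar scaffold, 3 were downregulated in thyroid tissue both under cold and under AT. Beside them stood 6.15% and 5.98% of all tested genes. In BAT 0 were downregulated under cold and 1 under AT, beside 0.631% and 3.19%. At an unadjusted p under 0.05, 6 and 2 were lower in BAT, beside 11.2% and 15.1%. The 2 of 12 under AT were near the share of all tested genes. POLR1B, a catalytic subunit of RNA polymerase I, had 1155 normalized counts in thyroid Control 1 and 1550 in Control 3. The cold lambs had 555 to 750 with a median of 597, and the AT lambs 458 to 807 with a median of 602. All 12 treated lambs were below both controls, at about the same level in cold and AT. The log2FC of POLR1B was −1.13 ± 0.19 (SE) under cold and −1.15 ± 0.19 under AT (adjusted p = 0.00247 and 0.0018, edgeR). In BAT, POLR1B had 501 and 484 normalized counts in Control 1 and Control 3 against 275 to 413 under cold and 335 to 448 under AT, and the log2FC of −0.56 ± 0.18 and −0.37 ± 0.18 did not pass (adjusted p = 0.114 and 0.217, edgeR).

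MYBBP1A and NOLC1 were the other 2 members of this class downregulated in thyroid tissue. MYBBP1A is a nucleolar protein that binds polymerase I and MYB, and its log2FC in thyroid tissue was −1.32 ± 0.22 under cold and −1.10 ± 0.22 under AT (adjusted p = 0.00258 and 0.00479, edgeR). In BAT, MYBBP1A had 1841 and 1598 normalized counts in Control 1 and Control 3, 560 to 1139 under cold (median 801) and 600 to 1138 under AT (median 818). Neither treated group overlapped the controls. Its BAT log2FC was −1.05 ± 0.26 under cold and −1.08 ± 0.26 under AT, and it passed under AT (adjusted p = 0.0199) but not under cold (adjusted p = 0.0555, edgeR). NOLC1, a chaperone of snoRNPs between the nucleolus and the Cajal body, had a log2FC of −1.32 ± 0.24 and −1.19 ± 0.25 in thyroid tissue (adjusted p = 0.00398 and 0.00546, edgeR) and of −0.95 ± 0.28 and −0.80 ± 0.28 in BAT (adjusted p = 0.0872 and 0.0848).

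POLR1A and RRN3 did not reach the fold threshold. POLR1A, the largest subunit of polymerase I, had a log2FC of −0.67 ± 0.15 under cold and −0.59 ± 0.15 under AT in thyroid tissue (adjusted p = 0.0088 and 0.0145, edgeR). RRN3, which links polymerase I to its promoter factors, passed the adjusted p under cold in thyroid tissue (log2FC −0.69 ± 0.20, adjusted p = 0.0264) and not under AT (−0.56 ± 0.20, adjusted p = 0.0571, edgeR). In BAT, POLR1A and RRN3 had log2FC between −0.67 and −0.23, with adjusted p from 0.2 to 0.65.

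UBTF, TCOF1 and NPM1 passed in none of the 4 comparisons, as did POLR1C, POLR1E, TAF1D, RCL1 and GTPBP4. UBTF, the factor that bends and opens the ribosomal DNA for polymerase I, had 1606 and 1763 normalized counts in BAT Control 1 and Control 3, against 1424 to 2002 under cold and 1540 to 2644 under AT. The groups overlapped. Its log2FC in BAT was 0.05 ± 0.21 and 0.17 ± 0.22 (adjusted p = 0.93 and 0.663), and in thyroid tissue −0.23 ± 0.14 and −0.20 ± 0.14 (adjusted p = 0.269 and 0.333, edgeR). With TMM scaling UBTF was above 0 in thyroid tissue too. TCOF1, a nucleolar partner of UBTF, had a log2FC of −0.04 ± 0.16 and 0.03 ± 0.16 in thyroid tissue (adjusted p = 0.869 and 0.89) and of −0.35 ± 0.40 and 0.12 ± 0.41 in BAT (adjusted p = 0.69 and 0.879, edgeR).

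NPM1, the most abundant nucleolar phosphoprotein and a chaperone of late assembly, had the highest level per kilobase of exon of the 58 genes in both tissues. It had 2326 ± 296 normalized counts per kilobase in BAT and 4314 ± 1239 in thyroid tissue (SD, n = 12 treated lambs). These 2 values have separate scales and do not compare the tissues. In the fit of both tissues, NPM1 had a log2 difference of thyroid minus BAT of −0.49 ± 0.13 in treated lambs (adjusted p = 0.00194, edgeR). It had 3650 and 3041 normalized counts in BAT Control 1 and Control 3, against 3070 to 4513 under cold and 3428 to 4499 under AT, so that the groups overlapped. The log2FC of NPM1 was 0.15 ± 0.20 and 0.24 ± 0.20 in BAT and −0.19 ± 0.32 and −0.37 ± 0.32 in thyroid tissue (adjusted p = 0.736, 0.49, 0.718 and 0.43, edgeR). With all 3 controls NPM1 was below 0 in BAT. Nucleolin (NCL), which binds the nascent precursor, came next in thyroid tissue with 2729 ± 602 normalized counts per kilobase (SD, n = 12), and was lower there at the adjusted p alone, with a log2FC of −0.77 ± 0.25 and −0.81 ± 0.24 (adjusted p = 0.0406 and 0.0316, edgeR). In BAT NCL did not pass, at −0.30 ± 0.22 and −0.28 ± 0.22 (adjusted p = 0.492 and 0.445).

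Of the 7 snoRNP genes, 5 were downregulated under cold and 3 under AT in thyroid tissue, beside 6.15% and 5.98% of all tested genes. In BAT 1 was downregulated in each comparison, which was GAR1, beside 0.631% under cold and 3.19% under AT. GAR1 is a core protein of the box H/ACA snoRNPs that make pseudouridine (chromosome 6, 18711081–18718814, reverse strand, Oar_rambouillet_v1.0). In BAT it had 246 and 243 normalized counts in Control 1 and Control 3. The cold lambs had 81.9 to 148 with a median of 104, and the AT lambs 66.5 to 126 with a median of 97.2. All 12 treated lambs were far below both controls, and cold and AT overlapped over most of their range. The log2FC of GAR1 was −1.19 ± 0.27 under cold and −1.32 ± 0.27 under AT (adjusted p = 0.0389 and 0.00902, edgeR).

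In thyroid tissue, GAR1 had 698 and 976 normalized counts in Control 1 and Control 3, against 249 to 326 under cold (median 306) and 227 to 368 under AT (median 283). There was again no overlap with the controls. The log2FC of −1.50 ± 0.19 and −1.55 ± 0.19 had adjusted p of 0.00103 and 0.000596 (edgeR). NHP2, which sits beside GAR1 in the same particles, had a log2FC of −1.54 ± 0.35 and −1.22 ± 0.36 in thyroid tissue (adjusted p = 0.0111 and 0.0277) and of −0.83 ± 0.17 and −0.74 ± 0.17 in BAT (adjusted p = 0.0323 and 0.017, edgeR), under the fold threshold in BAT.

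FBL (fibrillarin), the methyltransferase of the box C/D snoRNPs, was lower in all 4 comparisons at the adjusted p. In BAT it had 967 and 806 normalized counts in Control 1 and Control 3, against 410 to 530 under cold and 411 to 610 under AT. Its log2FC was −0.83 ± 0.17 and −0.77 ± 0.17 in BAT (adjusted p = 0.0323 and 0.0148) and −1.39 ± 0.29 and −1.22 ± 0.29 in thyroid tissue (adjusted p = 0.00706 and 0.0115, edgeR). NOP58, its box C/D partner, was downregulated in thyroid tissue under cold (log2FC −1.07 ± 0.17, adjusted p = 0.00226) and missed the fold threshold under AT (−0.98 ± 0.17, adjusted p = 0.0025, edgeR). DKC1 (dyskerin), the pseudouridine synthase of the GAR1 particle, was lower in thyroid tissue at the adjusted p alone, with −0.61 ± 0.16 and −0.48 ± 0.16 (adjusted p = 0.0174 and 0.0433, edgeR). In BAT its 6 AT lambs spread from 1881 to 8567 normalized counts around the controls at 3628 and 3893, and the log2FC of −0.45 ± 0.42 and 0.20 ± 0.43 did not pass (adjusted p = 0.613 and 0.809).

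Of the 21 small-subunit genes, 12 were downregulated under cold and 6 under AT in thyroid tissue, beside 6.15% and 5.98% of all tested genes. In BAT 1 was downregulated under cold and 3 under AT, beside 0.631% and 3.19%. RRP12, which accompanies both precursor subunits out of the nucleus, was downregulated in all 4 comparisons (chromosome 22, 21096411–21125199, reverse strand). In BAT it had 909 and 884 normalized counts in Control 1 and Control 3, 262 to 524 under cold (median 361) and 259 to 494 under AT (median 372). In thyroid tissue it had 1361 and 2310 in the controls, 445 to 666 under cold (median 511) and 415 to 1022 under AT (median 524). No treated library reached a control in either tissue, and the highest treated thyroid value was that of AT 3. The log2FC of RRP12 was −1.25 ± 0.26 and −1.27 ± 0.26 in BAT (adjusted p = 0.0323 and 0.00987) and −1.80 ± 0.27 and −1.62 ± 0.27 in thyroid tissue (adjusted p = 0.00195 and 0.00224, edgeR).

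Other small-subunit genes were called in some of the 4 comparisons. TSR1, which holds the late cytoplasmic small subunit in an inactive state, had a log2FC of −1.21 ± 0.21 and −1.29 ± 0.21 in thyroid tissue (adjusted p = 0.00338 and 0.00214), and passed in BAT under AT (−1.22 ± 0.25, adjusted p = 0.00969) but not under cold (−1.02 ± 0.25, adjusted p = 0.0542, edgeR). Of the exon bases of TSR1, 33.3% are shared with other genes of the annotation. How reads over shared bases were assigned is not given in the sources used here. DDX21, an RNA helicase that couples polymerase I to processing, was downregulated in thyroid tissue under cold (−1.09 ± 0.18, adjusted p = 0.00247) and just missed the fold threshold under AT (−0.99 ± 0.18, adjusted p = 0.00295, edgeR). NOB1, the nuclease that makes the final cut of the small-subunit RNA, had a log2FC of −0.56 ± 0.17 and −0.43 ± 0.17 in thyroid tissue (adjusted p = 0.0328 and 0.0781, edgeR) and of −0.37 ± 0.19 and −0.61 ± 0.19 in BAT (adjusted p = 0.334 and 0.0548).

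Of the 18 large-subunit genes, 10 were downregulated under cold and 8 under AT in thyroid tissue, beside 6.15% and 5.98% of all tested genes. In BAT 2 were downregulated under cold and 3 under AT, beside 0.631% and 3.19%. RRS1, which brings the 5S particle into the early large subunit, had the lowest log2FC of all 58 genes in each of the 4 comparisons (chromosome 9, 47106070–47107943, forward strand, 1 exon). In BAT it had 226 and 222 normalized counts in Control 1 and Control 3, 64.8 to 122 under cold (median 81.0) and 45.1 to 111 under AT (median 94.1). Every treated lamb was below both controls by a wide gap. In thyroid tissue RRS1 had 466 and 685 in the controls, 120 to 190 under cold (median 159) and 80.1 to 375 under AT (median 136). The value of 375 was AT 3, and the other AT lambs were at most 174. The log2FC of RRS1 was −1.38 ± 0.31 and −1.43 ± 0.31 in BAT (adjusted p = 0.0373 and 0.0117) and −1.86 ± 0.40 and −1.78 ± 0.41 in thyroid tissue (adjusted p = 0.00838 and 0.00886, edgeR).

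PES1, of the complex that processes the internal spacer of the precursor, had a log2FC of −1.19 ± 0.17 and −1.11 ± 0.17 in thyroid tissue (adjusted p = 0.00166 and 0.00171, edgeR) and of −0.57 ± 0.23 and −0.44 ± 0.24 in BAT (adjusted p = 0.206 and 0.25). NOP16, a nucleolar factor of the large subunit, had −1.33 ± 0.20 and −1.39 ± 0.20 in thyroid tissue (adjusted p = 0.00207 and 0.00131), and in BAT −0.95 ± 0.21 in both comparisons (adjusted p = 0.0371 and 0.0128, edgeR). NMD3, the adaptor that exports the large subunit, passed the adjusted p in BAT under AT (−0.67 ± 0.17, adjusted p = 0.0249) and in no other comparison, with −0.45 ± 0.17 under cold in BAT and −0.35 ± 0.16 and −0.41 ± 0.16 in thyroid tissue (adjusted p = 0.181, 0.14 and 0.0874, edgeR).

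**Figure D2:**
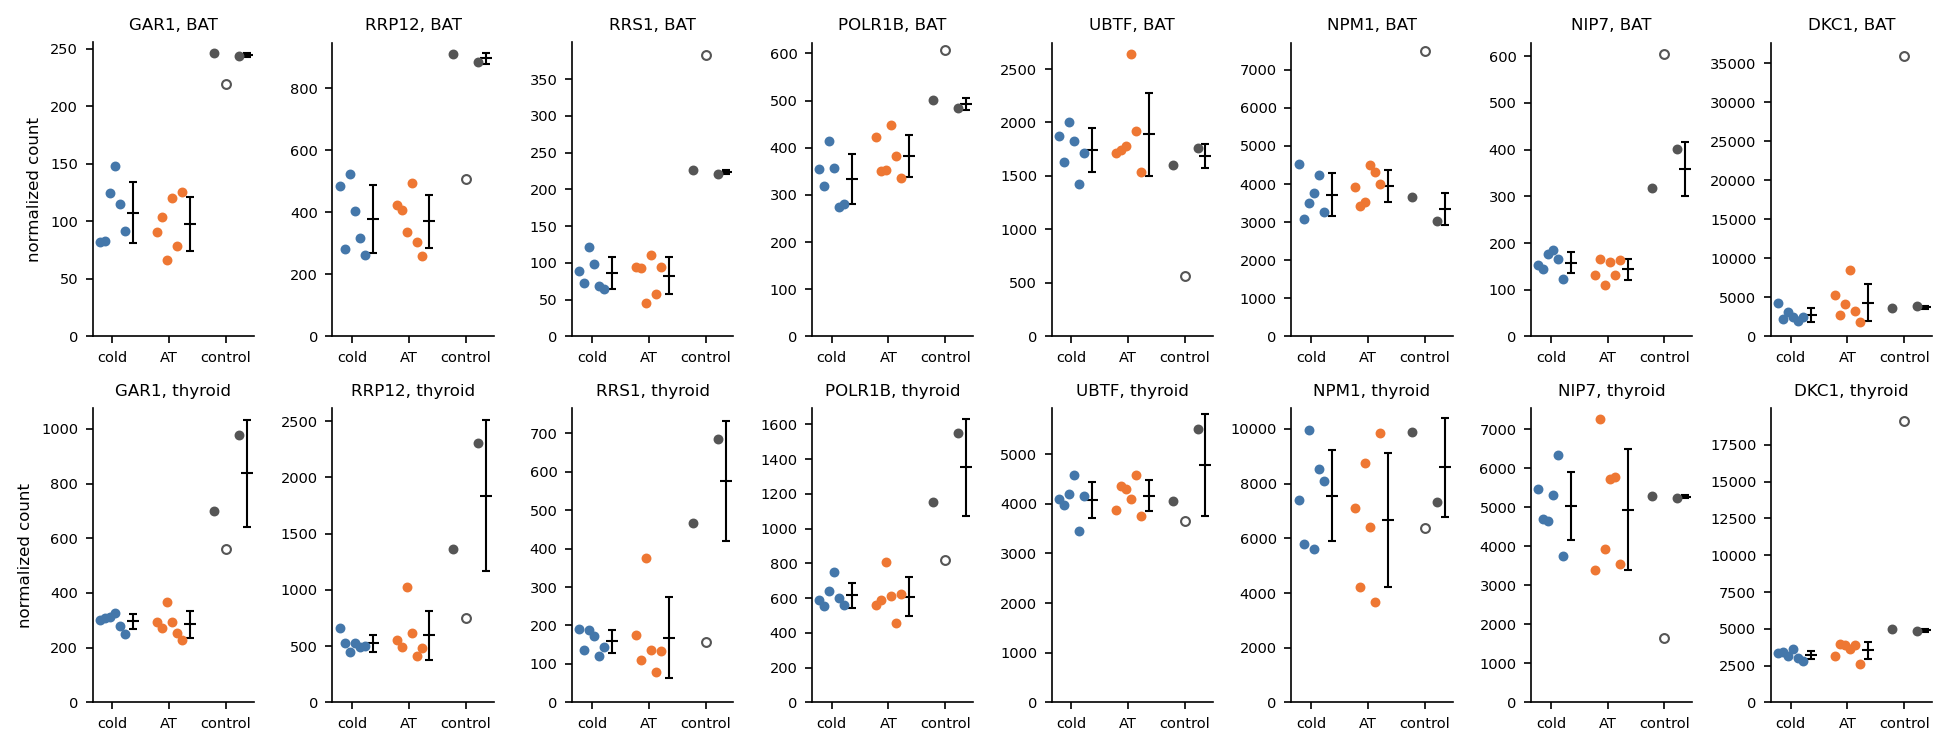
Normalized counts (vertical axes, starting at 0) of 8 ribosome biogenesis factors in every library of BAT (top) and thyroid tissue (bottom), by group. Filled circles are lambs used in the tests, the open circle is Control 2, and the bars beside each group are the mean and SD over the filled circles (n = 6 for cold and AT, n = 2 for controls). GAR1, RRP12, RRS1 and POLR1B show treated lambs below both filled controls in both tissues, UBTF and NPM1 overlap in BAT, and Control 2 is at 35956 for DKC1 in BAT.

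NIP7, a cofactor of the late nucleolar steps of both subunits, differed most between the tissues. In BAT it had 318 and 400 normalized counts in Control 1 and Control 3, 124 to 184 under cold (median 159) and 109 to 165 under AT (median 145), with no overlap. Its log2FC in BAT was −1.19 ± 0.20 and −1.32 ± 0.20 (adjusted p = 0.0123 and 0.00214, edgeR). In thyroid tissue the controls had 5302 and 5253, within the 3765 to 6341 of the cold lambs and the 3399 to 7257 of the AT lambs, and the log2FC was −0.07 ± 0.27 and −0.10 ± 0.27 (adjusted p = 0.884 and 0.818). The test of the difference between the tissues gave 1.10 ± 0.34 under cold and 1.18 ± 0.34 under AT, which did not pass (adjusted p = 0.194 and 0.0683, edgeR). In treated lambs NIP7 was higher in thyroid tissue than in BAT by 3.67 ± 0.13 on the log2 scale (adjusted p = 1.58e-18, edgeR).

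The row of NIP7 spans chromosome 14, 39254856–39286617, on the forward strand, with 7381 exon bases. On the reverse strand this span holds TMED6 (39258211–39263434) and overlaps TERF2 (39265409–39288001). Of the exon bases of NIP7, 540 (7.32%) are shared with TMED6 and none with exons of TERF2. TMED6 had a median of 0.679 normalized counts in BAT against 2202 in thyroid tissue, and TERF2 had 758 against 17191 (n = 15 libraries of each tissue, size factors set within each tissue). The nearby genes COG8 and VPS4A, which do not overlap NIP7, also had higher values in thyroid tissue, at 310 against 2024 and 855 against 5127. Whether the counting used the strand is not given in the sources used here. Any reads of TMED6 or TERF2 transcripts over the NIP7 exons thus cannot be told apart from those of NIP7. Their part in the thyroid level was not tested. UTP4, a small-subunit gene on the same chromosome (39117136–39146973), also differed between the tissues in value, with a log2FC of −0.86 ± 0.21 and −0.68 ± 0.21 in BAT (adjusted p = 0.0498 and 0.0509) against −0.17 ± 0.19 and −0.08 ± 0.19 in thyroid tissue (adjusted p = 0.542 and 0.787, edgeR). The difference between the tissues did not pass for UTP4 under cold (0.66 ± 0.28, adjusted p = 0.351).

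The changes in the 2 tissues were also compared gene by gene. No member passed the test of a difference between the tissues at an adjusted p under 0.05 in edgeR, beside 0.165% of 17021 tested genes with the lower and 0.0176% with the higher log2FC in thyroid tissue under cold, and 1.55% and 0.159% under AT. At an unadjusted p under 0.05, 4 members differed under cold (DDX47 and POLR1B with the lower log2FC in thyroid tissue, UTP4 and NIP7 in BAT) and 5 under AT (POLR1B, PES1, DDX47 and DDX52 lower in thyroid tissue, NIP7 in BAT), beside 11.7% and 17.8% of all tested genes in either direction. With TMM scaling 1 member passed under AT.

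The members and all tested genes were both lower at the median in the thyroid tissue than in the BAT of treated lambs. The median log2 difference was −0.42 for the members against −0.34 for all tested genes, and −0.17 against −0.10 with TMM scaling. At the adjusted p alone 37 of the 58 genes were lower and 5 higher in thyroid tissue, beside 49.9% and 24.3% of all tested genes. With the fold threshold 9 members were lower and 1 (NIP7) was higher, beside 27.2% and 13.3%, and with TMM scaling the numbers were 5 and 2. The lowest were RCL1, a factor of early precursor cleavage, at −1.92 ± 0.15, the helicase DDX10 at −1.77 ± 0.20, and the large-subunit GTPase GTPBP4 at −1.52 ± 0.24 (adjusted p = 8.64e-12, 7.71e-09 and 3.79e-06, edgeR). These values are relative to reference genes that may themselves differ between the tissues. All tested genes can here include genes expressed in 1 tissue alone, whereas all 58 members passed the filter in each tissue.

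Temperature made no detectable difference to the pathway. In cold against AT, no member was called in BAT or in thyroid tissue by edgeR's test, beside 0.0872% of lower and 0.188% of higher calls over all tested genes in BAT and 0 of 16122 genes in thyroid tissue. At an unadjusted p under 0.05 there were 2 lower members in BAT (DKC1, log2FC −0.65 ± 0.30, and UTP20, −0.40 ± 0.17) and 1 in thyroid tissue (NOC4L, −0.49 ± 0.20), with adjusted p of 0.404, 0.366 and 0.907 (edgeR). These counts stand beside 6.74% of all tested genes in BAT and 3.29% in thyroid tissue, and no member was higher under cold at this p, beside 5.56% and 2.11%. DESeq2's Wald test also called none. The median log2FC of the 58 genes was −0.09 in both tissues, against −0.05 in BAT and 0.00 in thyroid tissue over all tested genes, and the members ranged from −0.65 (GTPBP4) to 0.24 (NOB1) in BAT and from −0.49 (NOC4L) to 0.20 (DDX52) in thyroid tissue. In no member did the cold lambs and the AT lambs separate without overlap, beside 0.154% of all tested genes lower and 0.537% higher under cold in BAT and 0.0744% and 0.118% in thyroid tissue. The coefficient of variation among the 6 lambs of a group had a median over the members that ran from 14.1% in thyroid tissue under cold to 23.2% in BAT under AT, with the other 2 groups between.

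**Figure D3:**
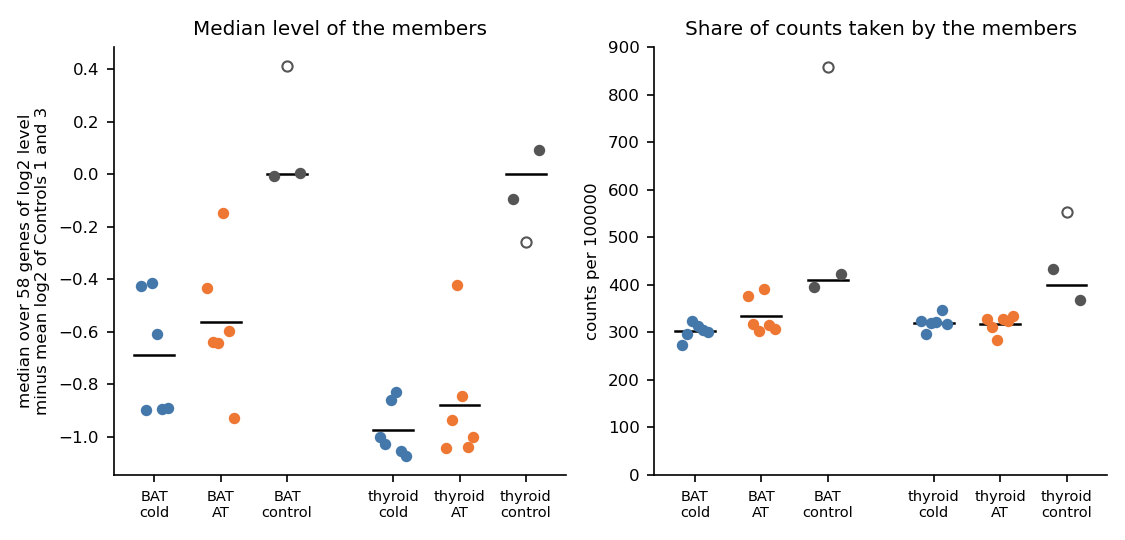
Left, the median over the 58 genes of the log2 level of a library minus the mean log2 level of Controls 1 and 3 (vertical axis), for each library by group. Right, the counts of the 58 genes per 100000 counts outside LOC114112617 and LOC114115287; the axis starts at 0. Filled circles are used lambs, open circles Control 2, bars the group means over filled circles. In the right plot all treated lambs lie below both filled controls of their tissue, and cold and AT lie together.

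The share of the counts that the members took does not need a size factor. Outside the 2 abundant transcripts, the 58 genes took 274 to 325 of every 100000 counts in the BAT of cold lambs, 302 to 391 in that of AT lambs, and 396 and 422 in Control 1 and Control 3. In thyroid tissue they took 296 to 346 under cold, 284 to 335 under AT, and 433 and 367 in the controls. The treated groups did not reach the lower control in either tissue. The share is led by the most abundant members and weighs genes by their counts, unlike the median over genes. It also depends on how many counts other abundant transcripts take. The lowest thyroid share, 284, was that of AT 3, the library with the most skeletal muscle RNA.

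Single libraries differed within a group. BAT AT 4 was the highest of the 6 AT lambs in 44 of the 58 genes and AT 6 the lowest in 36. GTPBP4 in BAT ranged from 873 in AT 6 to 9607 in AT 4, around 3534 and 4068 in Control 1 and Control 3, and DDX10, DKC1 and TCOF1 were likewise lowest in AT 6 and highest in AT 4 among the AT lambs. BAT AT 6 also had the lowest sum of 5 brown adipocyte genes (743 normalized counts) and the highest sum of 5 fibroblast genes (173100), and AT 4 had 2488 in the former. The part of these cell types in the levels of the members was not tested. BAT AT 6 also had the highest size factor of the BAT AT lambs, 1.84, by which its counts were divided. In thyroid tissue AT 3 was the highest of the AT lambs in 42 of the 58 genes, and it is the library with the most skeletal muscle RNA. It also had the lowest size factor of the thyroid AT lambs, 0.741, where the highest was 1.21. The members took 284 of every 100000 of its counts, the lowest share of those lambs. How many of all tested genes were highest or lowest in these libraries was not computed. Without AT 3, 26 members were downregulated under AT in place of 20. Leaving out both AT 3 and Control 1 leaves Control 3 as the only thyroid control, so no count is given for that fit.

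Markers of other cell types moved with the groups as well. In thyroid tissue 4 of 5 fibroblast genes and 3 of 5 proliferation genes (MKI67, TOP2A, CDK1, CCNB1 and BUB1) were upregulated under cold, and the same numbers under AT. The summed normalized counts of the fibroblast genes (COL1A1, COL1A2, COL3A1, PDGFRA and DCN) were 14008 and 11526 in thyroid Control 1 and Control 3, 27574 to 127156 under cold and 32231 to 137271 under AT, and those of the proliferation genes were 132 and 201 in the controls, 281 to 874 under cold and 301 to 1581 under AT. In thyroid tissue the sum of 9 follicular genes was 2877480 and 5881010 in Control 1 and Control 3, 1799910 to 2711660 under cold and 1325920 to 2427210 under AT, with 2 of 8 tested genes downregulated under cold and 3 under AT. The sum of 5 endothelial genes was 18592 and 28283 in the thyroid controls, 10362 to 15049 under cold and 8215 to 19181 under AT, with 2 and 1 genes downregulated. Of 5 tested brown adipocyte genes 1 and 2 were downregulated in thyroid tissue, and of 3 tested macrophage genes 2 and 1 were upregulated.

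In BAT the sum of 5 brown adipocyte genes was 26898 and 23052 in Control 1 and Control 3, 4787 to 16726 under cold and 743 to 16526 under AT. Treated lambs and controls did not overlap, and none of the 5 tested genes was called. Of these genes UCP1 had the highest median over the BAT libraries, 8266, followed by CIDEA at 1144. Under AT in BAT 1 of 7 adipocyte genes, 1 of 3 tested macrophage genes and 1 of 5 endothelial genes were downregulated. None of the 5 fibroblast genes was called in BAT, and 1 of 5 proliferation genes was upregulated under cold. None of the fibroblast or proliferation genes was at 0 in any library. The part of these cells in the lower level of the members was not tested.

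The other genes of the pathway, 104 further ribosome biogenesis genes with a row, were lower as well. In thyroid tissue 32 were downregulated under cold and 23 under AT, beside 6.15% and 5.98% of all tested genes. In BAT 6 and 7 were downregulated, beside 0.631% and 3.19%, and none was upregulated in either tissue. Their median log2FC was −0.77 and −0.73 in thyroid tissue and −0.47 and −0.42 in BAT. Among them NOP14, of the small-subunit processome, had a log2FC of −1.64 ± 0.25 in thyroid tissue and −1.48 ± 0.28 in BAT under cold (adjusted p = 0.00202 and 0.0229, edgeR), and RPF2, the partner of RRS1, had −1.35 ± 0.44 and −1.55 ± 0.30 (adjusted p = 0.046 and 0.0237).

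MYC was downregulated in thyroid tissue under cold (log2FC −1.70 ± 0.51, adjusted p = 0.0334) and not called under AT (−1.03 ± 0.52, adjusted p = 0.169, edgeR). It had 1149 and 550 normalized counts in thyroid Control 1 and Control 3, 224 to 296 under cold and 228 to 1182 under AT, where AT 3 had the 1182 and the other AT lambs at most 353. The highest thyroid values of MYC were those of AT 3 and Control 1, the libraries high in skeletal muscle RNA, whose part in these values was not tested. In BAT the log2FC of MYC was −0.94 ± 0.35 and −0.76 ± 0.36, which did not pass (adjusted p = 0.169 and 0.19).

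The structural proteins of the ribosome had a median log2FC nearer to or above 0, and the gap to the assembly factors was not tested. Of 73 cytosolic ribosomal protein genes with a row, none was downregulated in any comparison. In BAT their median log2FC was 0.31 under cold and 0.40 under AT, and none passed the adjusted p in edgeR. At an unadjusted p under 0.05, 1 was higher under cold and 16 under AT, beside 6.96% and 10.9% of all tested genes. With all 3 controls and TMM scaling these medians were −0.03 and −0.01. In thyroid tissue the medians were −0.12 in both comparisons, and with TMM scaling they were 0.15 and 0.18, so that their direction in thyroid tissue depends on the scaling while the members stayed below 0 at the median in all scalings tried. RPL19, a ribosomal protein gene, is 1 of the 3 genes used for scaling. With ACTB and HUWE1 alone the ribosomal proteins in BAT were at 0.55 and 0.73, the members at −0.41 and −0.22, and all genes at 0.13 and 0.28.

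Control 2, the lamb left out by the study, held several members far above every other library. The study removed it because its counts were outlying overall. Its size factors, 0.465 in BAT and 0.632 in thyroid tissue, were the lowest of each tissue. How many of all tested genes stood this far from the other controls was not computed. The counts below may therefore not be particular to the members. In BAT it was above both other controls in 39 of the 58 genes and below both in 14, and in thyroid tissue above both in 24 and below both in 33. GTPBP4 had 44034 normalized counts in BAT Control 2, 10.8 times the higher of the other controls, and DKC1 had 35956, 9.24 times. TCOF1 (5600), DDX10 (5505), DDX21 (4899), NOP58 (5738) and WDR43 (2724) were also more than 3 times the higher control in BAT. In thyroid tissue of the same lamb DKC1 had 19142, DDX21 had 6502 and DDX52 had 5190, each more than 3 times the higher control.

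Not every member was high in this lamb. UBTF had 564 normalized counts in BAT Control 2, against 1606 and 1763 in the other controls, and NIP7 had 1651 in its thyroid tissue, against 5302 and 5253. The 58 genes took 857 of every 100000 counts in its BAT and 552 in its thyroid tissue, above all other libraries of each tissue. The BAT library of Control 2 also had the highest sum of brown adipocyte genes (91836, against 26898 and 23052 in the other controls). Its sum of adrenal cortex genes was 2747, against 162 and 222, and that of endothelial genes 13612, against 47902 and 43318. Thyroid Control 2 had a parathyroid sum of 9217, against 233 and 60.9, and a brown adipocyte sum of 12450, against 1640 and 2808. The 2 abundant transcripts took 27.8% of its counts, against 8.04% and 5.18%. The part of these differences in the levels of the members was not tested.

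**Figure D4:**
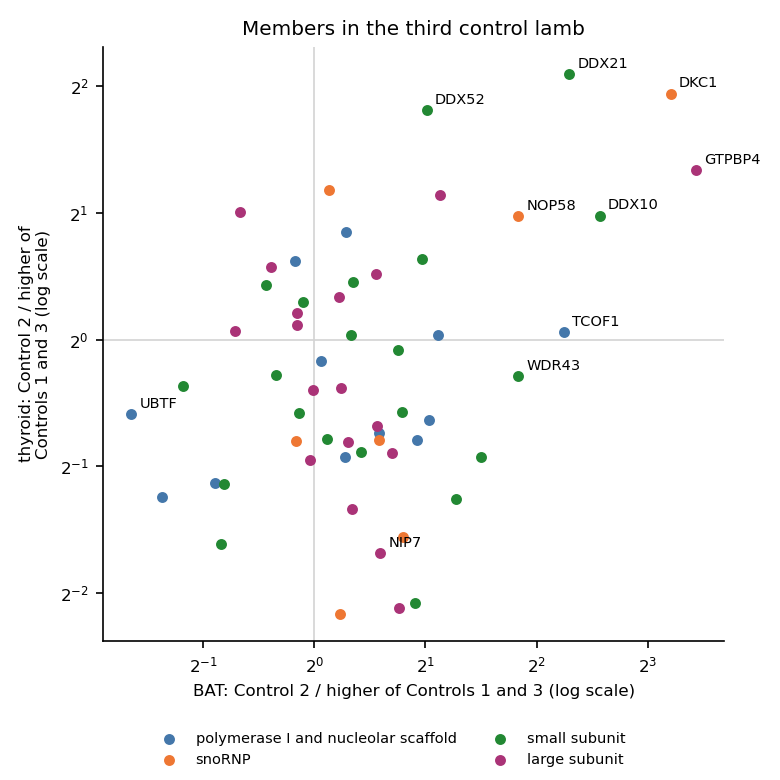
Normalized count of each of the 58 ribosome biogenesis factors in Control 2 divided by the higher of Controls 1 and 3, in BAT (horizontal axis, log scale) and thyroid tissue (vertical axis, log scale), coloured by class. Gray lines mark a ratio of 1. DKC1 and DDX21 are more than 3 times the higher control in both tissues, GTPBP4 is the farthest to the right at 10.8, and UBTF lies below 1 in both.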

How the data were processed

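RNA of BAT and thyroid tissue from the same 15 lambs was isolated with TRIzol, selected with oligo(dT) and sequenced on a BGISEQ-500. The authors checked reads with FastQC 0.11.9, trimmed them with Trimmomatic 0.39, aligned them to Oar_rambouillet_v1.0 with STAR 2.7.7a and counted reads per RefSeq gene with featureCounts (Subread 2.0.0), multimapping reads included. The deposited values are these raw counts. Reads of near-identical copies can thus be counted for more than 1 gene, and the strand setting is not given in the sources used here. All sample columns were used.

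The study kept 2 of the 3 controls in each tissue, and they were identified by proportionality of the deposited counts to the normalized counts of the study. The counts of a tissue were fitted in R 4.3.3 with edgeR 4.0.16 (robust quasi-likelihood, cold, AT and control in 1 fit), with DESeq2 1.42.0 size factors over ACTB, HUWE1 and RPL19. A gene entered the test if 10 or more libraries of the tissue had 10 or more reads of it, and p-values were adjusted over all of them by the Benjamini-Hochberg method. A gene was called at |log2FC| of at least 1 and an adjusted p under 0.05. The SE is |log2FC| divided by the square root of the F statistic. Differences between the tissues were tested in a fit of both tissues with a mean for each group. There the filter of 10 reads in 10 libraries was applied to the libraries of both tissues together, which kept 17021 genes. Each library comes from 1 lamb, and the fits treat lambs as replicates.

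The same lamb gave both tissues, by the labels. The deviations of its libraries from their group means had a correlation across genes of −0.00272 to 0.371, above 0.1 in 13 of 14 lambs, and a lamb block was fitted as an alternative. The other alternatives were TMM and DESeq2 scaling, ACTB and HUWE1 alone, DESeq2's Wald test, other filters, other sets of controls, the RNA integrity number as a covariate, and each library left out in turn.

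The members, the gene lists and the tests were chosen with earlier results of these data known. Named were the 2 members of each class and tissue with the lowest p, those above 0 in both comparisons with the controls of a tissue, those that passed between tissues or temperatures, and a set list of well-known factors. Other genes named for their values were chosen after those values were seen. Chromosomes are from the RefSeq annotation of ARS-UI_Ramb_v3.0 by symbol, and positions are those of the deposited table.

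The fits were tested on simulated counts of the 14905 genes of BAT and the 16122 genes of thyroid tissue. For cold against control, 21% of genes changed by 1 on the log2 scale and 91% of those changed by 2 passed the adjusted p in BAT, and 19% and 82% in thyroid tissue. For AT against control the shares were 22% and 92% in BAT and 24% and 81% in thyroid tissue. Only 100 genes were changed by each fold, and the reference genes were simulated without noise. In the real thyroid data 16.9% of tested genes under cold and 18.8% under AT were lower at the adjusted p. The simulated shares therefore need not hold in the real data. Sequences of the members are not shown here.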

Additional observations from a re-analysis of the deposited data

Results flagged for a closer look

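Of 92 tests for a library far from the others, 12 found one. Each test took 1 named gene or 1 summary of the members in the 6 lambs of a treated group. The 95% critical value used flags about 1 in 20 tests by chance, and these tests share libraries and are not independent. Thyroid AT 3, the library with the most skeletal muscle RNA, stood above the other AT lambs in 5 genes, with normalized counts of 2391.6 for FBL, 1022.5 for RRP12, 375 for RRS1, 700.09 for NOP16 and 1918.2 for NOB1. It was also the highest in the median log2 level of the members against the mean of the controls, at −0.42. AT 3 had the lowest size factor of the thyroid AT lambs, 0.741. It also had the lowest share of counts taken by the members, 284 per 100000. The parts of the muscle RNA and of the size factor in these values were not tested.

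The other libraries far from their group were BAT Cold 1, highest in DDX21 (798.14 normalized counts) and in NCL (5041.9), BAT Cold 3, highest in RRN3 (538.21), BAT AT 4, highest in UBTF (2643.9), thyroid Cold 4, highest in NOLC1 (1513.1), and thyroid Cold 6, lowest in DDX21 (526.45).

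Control 2, which enters no main test, held members above 3 times the higher of the other controls. In its BAT these were TCOF1 at 5600 normalized counts, NOP58 at 5737.7, DKC1 at 35956, WDR43 at 2723.6, DDX10 at 5505.4, DDX21 at 4898.7 and GTPBP4 at 44034. In its thyroid tissue they were DKC1 at 19142, DDX21 at 6501.6 and DDX52 at 5190.5.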

How the results depend on the processing

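Against the controls, the median of the members was below 0 in both tissues under every setting tried, but the number of called members moved with the scaling and the controls. The cause of these moves was not tested, except that a rule without a fold threshold passes more genes by construction.

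In BAT under cold, the 4 downregulated members became 2 with ACTB and HUWE1 only, 7 with DESeq2's Wald test, 7 with the RNA integrity number as a covariate, 9 at the adjusted p alone, 20 with all 3 controls, 27 with all 3 controls and TMM scaling, 25 with Control 2 in place of Control 1 and 24 with it in place of Control 3. Leaving out each library gave 0 to 9. The median log2FC became −0.95 with all 3 controls and TMM scaling and −0.91 with Control 2 in place of Control 3. In BAT under AT, the 8 members became 2 with ACTB and HUWE1 only, 16 with all 3 controls, 24 with all 3 controls and TMM scaling, 17 at the adjusted p alone, and 20 and 21 with Control 2 in place of Control 1 and of Control 3. Leaving out each library gave 0 to 9. The median became −0.22 with ACTB and HUWE1 only and −0.88 with all 3 controls and TMM scaling.

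In thyroid tissue under cold, the 30 members became 12 with TMM scaling, 12 with DESeq2 size factors and 47 at the adjusted p alone, with a median of −0.72 and −0.71 for the scalings in that order, and leaving out each library gave 3 to 30. Under AT, the 20 members became 7, 7 and 39, with a median of −0.47 for both scalings, and leaving out each library gave 3 to 26, the lowest value without Control 3. The median of cold against AT, near 0, changed sign from −0.09 to 0.01 without AT 4 in BAT and from −0.09 to 0.05 without AT 3 in thyroid tissue. Without both AT 3 and Control 1, a setting chosen after seeing the data, the median under AT was −0.998. That fit has Control 3 as its only control. The members whose change differed between the tissues rose from 0 to 1 under AT with TMM scaling and to 1 under both cold and AT with all 3 controls, and leaving out each lamb gave 0 to 3 under AT, with 3 without the lamb of AT 3 and 1 without that of AT 6. With lambs paired between tissues by a replicate block, 0 members differed in their change under cold or AT and 10 differed in level in the treated lambs, so the block changed none of these counts.

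Single genes were followed where they passed the adjusted p in the main fit, with or without the fold threshold. Under alternative settings 181 values no longer passed the adjusted p, in the same direction, and 1073 still passed it. With 2 controls against 6 treated lambs, changes of 1 on the log2 scale were mostly missed in simulated data. Few genes changed in those data and the reference genes had no noise, so this need not hold in the real data. A search of promoters for CACGTG was not run.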
